A study of Mus musculus with 24 samples.

Results

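A group of 7 genes of the interleukin and cytokine receptor families were followed through the differentiation of mouse C2C12 myoblasts: the ligands Il6, Il12a, Csf1 and Lif, the antagonist Il1rn, and the receptor chains Il6st and Osmr. They were found by symbol, taking every probe set whose annotation names 1 of these 7 genes and no other. That gave 7 probe sets of the 12422 that were not controls, covering 6 of the 7 genes (of 8251 genes named by a probe set in this way): Il6st has 2 probe sets, Il6, Il12a, Csf1, Il1rn and Osmr have 1 each, and no probe set names Lif alone, so Lif was not measured here. C2C12 is an established mouse myoblast line, and its total RNA was hybridised to 24 Affymetrix arrays, 3 for each of 8 days counted from the change to differentiating medium. The cells of days -2 and -1 were proliferating in culture, those of day 0 were confluent and were being given differentiating medium, and those of days 2, 4, 6, 8 and 10 had been in it for that many days. All groups are the same line with no genetic change or added agent in the labels, and the labels do not say whether day 0 RNA was taken before or after the medium went on, what the media held, or whether the 3 arrays of a day came from separate cultures. The p-values therefore measure the spread between arrays, which may be technical.

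Interleukin 6, leukemia inhibitory factor, oncostatin M and cardiotrophin 1 signal through receptor complexes that share the chain gp130, the product of Il6st, and activate JAK kinases and the transcription factor STAT3, whose target Socs3 encodes a feedback inhibitor. Oncostatin M uses gp130 together with the chain encoded by Osmr, and leukemia inhibitory factor uses gp130 with the chain encoded by Lifr. Interleukin 1 signals through a separate receptor to NF-kappaB, and Il1rn encodes the receptor antagonist that occupies this receptor without activating it. Csf1 encodes macrophage colony stimulating factor, the ligand of Csf1r, and Il12a encodes the p35 subunit shared by interleukin 12 and interleukin 35. In skeletal muscle, interleukin 6 and leukemia inhibitory factor are known as products of the muscle cells themselves and as growth signals for myoblasts.

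Csf1 fell and Il12a, Osmr and Il6st rose over the course, Il1rn peaked on day 0 and then fell 12.1-fold within 2 days, and Il6 went from background to a low measured level on day 0. In these bulk samples fewer cells of a type and less RNA per cell cannot be told apart. The unit throughout is the authors' intensity on a linear scale, and the floor, taken as background, is the 20th percentile of all values, 77. Readings under the floor are printed as deposited but were raised to 77 before log2 values were taken. Tests are 2-sided in limma over all 24 arrays, with Benjamini-Hochberg adjustment over the 8484 probe sets bright enough on at least 1 day, and calls are those with an adjusted p under 0.05. All 7 probe sets of the 6 measured genes were bright enough to be tested, Il6 through days 0 and 4 alone and Il12a through days 6 to 10 alone. The F test over the 8 days called 7 of the 7, where it called 55.1% of all probe sets tested. Among days 2 to 10 it called 4 of the 7 (Il12a, Csf1, Osmr and Il1rn) against 14.6% of all.

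**Figure D1:**
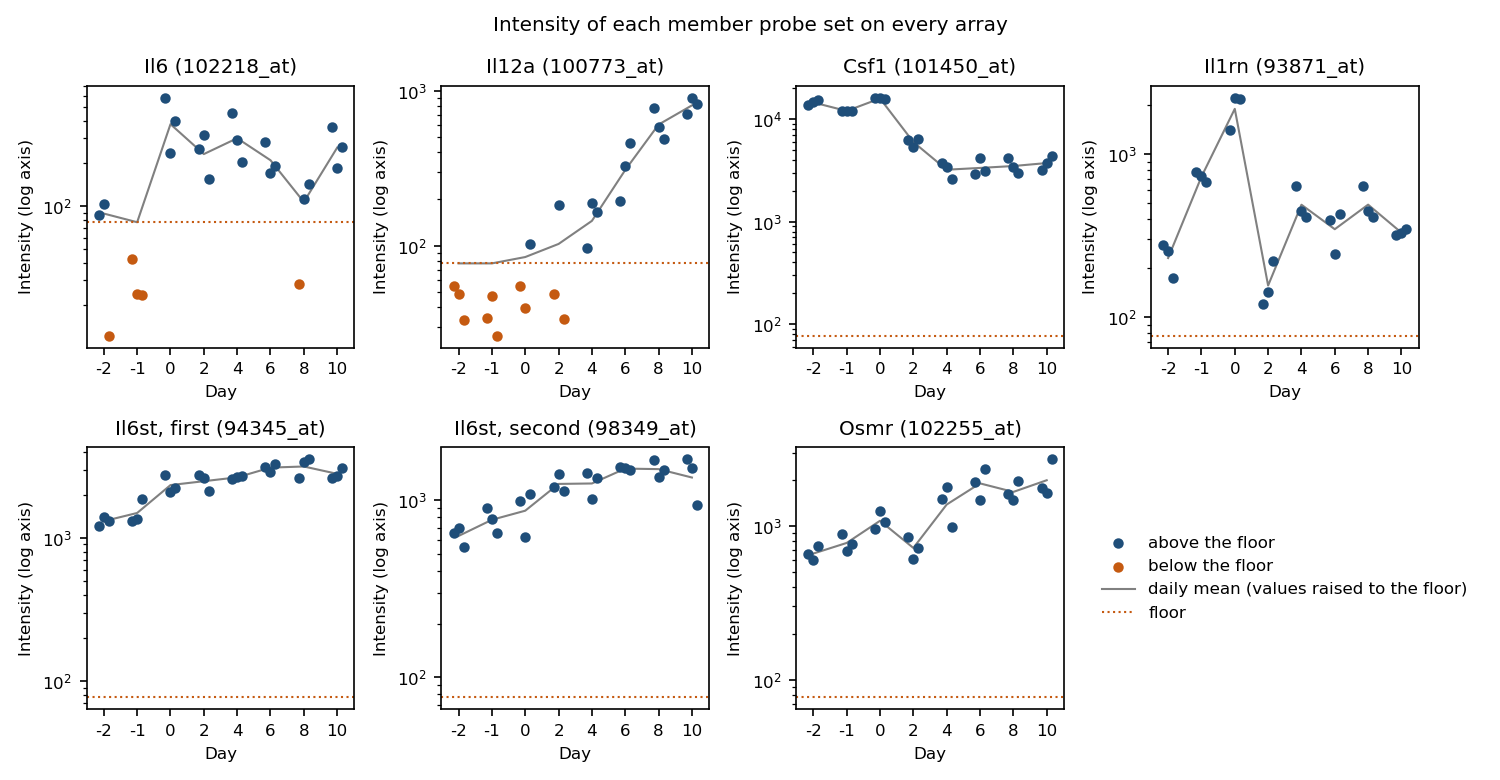
Intensity (vertical, log axis) of the 7 probe sets on each of the 24 arrays, by day (horizontal, days drawn evenly spaced). Points are arrays, orange points lie under the floor of 77 (dotted line), and the grey line joins the daily means of log2 values after raising to the floor. Il12a has all 3 arrays above the floor from day 4 on, Csf1 drops between days 0 and 4, and Il1rn has its highest 3 readings on day 0.

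Il6, on chromosome 5 (GRCm38.p6, chr5:30013114-30019975), was at or near background in proliferating cells and above it from day 0 on in all arrays but 1 of day 8. The 3 arrays read 87.2, 104 and 12.2 on day -2 and 42.6, 24.2 and 23.8 on day -1, so that all 3 arrays of day -1 and 1 of day -2 lay under the floor. On day 0 they read 579.8, 236 and 396, all above every reading of the earlier days. Day 0 was above day -1 by at least 2.30 ± 0.42 (SE, n = 3 arrays on each day) on the log2 scale, which is at least 4.91-fold, with an adjusted p of 0.000174 in limma. This call rests on where background is set: with the floor at the 40th percentile the difference was 0.53 with an adjusted p of 0.0515.

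In differentiating medium the Il6 readings stayed dim and scattered. They were 255, 319.5 and 155 on day 2, 451, 294 and 206 on day 4 and 284, 172 and 192 on day 6. Day 8 was lower, with 28.4, 112 and 142, of which 1 lay under the floor, and day 10 read 359, 185 and 260.0. Ordered by mean, days 0, 4, 10, 2 and 6 each overlapped the next, and a gap without overlap stood only between day 6 and day 8. The change from day 0 to day 2 was -0.70 ± 0.42 (adjusted p = 0.275 in limma), and the F test among days 2 to 10 gave an adjusted p of 0.0845. Day 10 was 2.91-fold above day -2 (log2 1.54 ± 0.42, n = 3, adjusted p = 0.00381 in limma), with the day -2 mean holding 1 array raised to the floor; with the floor at the 40th percentile this became 0.12 (adjusted p = 0.671).

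Printed here are windows around annotated starts of the 3 measured genes that hold AP-1 letters, Il6, Il1rn and Osmr. Il6 and Il1rn were called higher from day -1 to day 0, and Osmr was not. Csf1 and 1 Il6st probe set were also called higher at that step, and their windows hold no such letters. Whether the letters bear on that step was not tested. RefSeq promoter windows on GRCm38.p6 (250 bases before the start to 50 after it) were found for all 7 genes. They were searched on both strands for TGANTCA (AP-1), TTCNNNGAA (STAT), TTGCNNAA (C/EBP) and the NF-kappaB pattern of GGG, any 5 bases and CC. Capitals mark matches to AP-1, C/EBP and NF-kappaB, and runs of capitals over 10 bases are overlapping NF-kappaB matches.
Il6, chr5:30012864-30013163, plus strand: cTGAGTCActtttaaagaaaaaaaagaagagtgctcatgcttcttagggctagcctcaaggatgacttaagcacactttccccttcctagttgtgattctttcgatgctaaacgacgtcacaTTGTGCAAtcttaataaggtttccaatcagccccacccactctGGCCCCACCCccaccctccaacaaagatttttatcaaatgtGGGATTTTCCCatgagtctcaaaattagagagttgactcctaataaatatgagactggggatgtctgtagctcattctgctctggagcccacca
Il1rn, chr2:24336610-24336909, plus strand, the first of its 3 windows: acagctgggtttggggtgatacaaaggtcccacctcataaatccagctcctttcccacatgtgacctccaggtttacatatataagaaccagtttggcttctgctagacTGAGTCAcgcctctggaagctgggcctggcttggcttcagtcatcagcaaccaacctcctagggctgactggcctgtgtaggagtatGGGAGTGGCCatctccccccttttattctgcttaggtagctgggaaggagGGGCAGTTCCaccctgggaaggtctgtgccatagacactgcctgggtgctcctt
Osmr, chr15:6874264-6874563, minus strand: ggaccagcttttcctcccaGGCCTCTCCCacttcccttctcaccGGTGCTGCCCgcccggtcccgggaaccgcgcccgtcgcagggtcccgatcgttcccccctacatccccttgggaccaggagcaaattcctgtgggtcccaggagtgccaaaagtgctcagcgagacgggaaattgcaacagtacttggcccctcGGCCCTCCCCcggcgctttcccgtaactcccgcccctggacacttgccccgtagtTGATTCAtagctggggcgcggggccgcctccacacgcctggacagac
The AP-1 letters begin at position -249 from the start in Il6, -141 in Il1rn and 4 in Osmr, with the first transcribed base as position 1. AP-1 letters occur in 7.81% of the 32851 RefSeq mouse windows. Among the 9 windows of the 6 measured genes they occur in 3, 1 each of Il6, Il1rn and Osmr. The C/EBP letters, present in 10.8% of all windows, occur only in Il6 among the measured genes, at position -128. No window of the 6 measured genes holds the STAT letters, which 8.30% of all windows hold. The NF-kappaB pattern is in 50.8% of all windows and in at least 1 window of each of the 6, so its presence does not set them apart. The E-box letters CANNTG, not capitalised here, are in 72.3% of all windows and in every measured gene but Csf1. These are matches of letters and not shown binding sites.

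Il12a, on chromosome 3 (chr3:68690644-68698550), was at background in myoblasts and climbed through the later days in differentiating medium. The arrays read 55.4, 49.1 and 33.2 on day -2, 34.4, 47.4 and 26.3 on day -1 and 55.2, 39.5 and 102 on day 0. On day 2 they read 49.2, 183 and 33.5, so that 10 of the 12 arrays up to day 2 lay under the floor. The 2 exceptions were replicate 3 of day 0 and replicate 2 of day 2. From day 4 on every array was above it.

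Readings of Il12a were 96.9, 189 and 166 on day 4 and 195, 326 and 461 on day 6. They reached 774, 585 and 491 on day 8 and 707, 900.2 and 819.7 on day 10. Each reading of day 6 exceeded each of day 4, and each of day 8 exceeded each of day 6, while days 8 and 10 overlapped. Day 10 was at least 10.5-fold above day -2 (log2 3.39 ± 0.39, n = 3, adjusted p = 1.65e-07 in limma) and at least 7.83-fold above day 2 (log2 2.97 ± 0.39, adjusted p = 1.39e-05), where 2 of 3 arrays were at the floor. The interleukin 12 partner of p35 is p40, the product of Il12b, which had 14 of its 24 arrays under the floor and was too dim to be tested. The interleukin 35 partner is the product of Ebi3, which was tested and was called in none of the 5 comparisons between days.

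Csf1, on chromosome 3 (chr3:107741048-107760469), was the ligand that fell. Its arrays read 13791, 14580.5 and 15297 on day -2, 12072, 12048 and 11909.7 on day -1 and 16112, 16043 and 15563 on day 0. On day 2 they read 6234, 5404 and 6338, under every earlier reading. Day 4 was lower again, with 3755, 3408 and 2579, and the days after it overlapped one another, with 2894, 4129.5 and 3115 on day 6, 4157, 3403 and 2994 on day 8 and 3155, 3766 and 4355 on day 10. In order of mean, days 0, -2, -1, 2 and then days 4 to 10 formed 5 steps with no overlap between them.

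The fall of Csf1 from day 0 to day 2 was 2.66-fold (log2 -1.41 ± 0.15, n = 3, adjusted p = 7.73e-08 in limma). A further 1.60-fold fall separated day 2 from day 10 (log2 -0.68 ± 0.15, adjusted p = 0.00223). Day 10 was 3.90-fold below day -2 (log2 -1.96 ± 0.15, adjusted p = 9.24e-11). The dip on day -1 was -0.28 on the log2 scale and was not called, and the difference of day 0 from day -1, 0.41 ± 0.15, was called at an adjusted p of 0.0423. That last call was lost when any 1 of the 6 arrays of both days was left out, with values between 0.40 and 0.42 and adjusted p between 0.0774 and 0.0985.

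Il1rn, the interleukin 1 receptor antagonist, on chromosome 2 (chr2:24336860-24351491), rose in 2 steps up to day 0 and then dropped to its lowest daily mean. The arrays read 276, 256 and 173 on day -2, 772, 734 and 678 on day -1 and 1415, 2212 and 2172 on day 0. On day 2 they read 121, 142 and 223, still above the floor of 77 and overlapping the readings of day -2. Days -2, -1 and 0 did not overlap one another, and day 0 and day -1 stood above all other days. The rise was 3.15-fold from day -2 to day -1 (log2 1.66 ± 0.29, n = 3, adjusted p = 0.000396 in limma) and 2.61-fold from day -1 to day 0 (log2 1.38 ± 0.29, adjusted p = 0.000752). The drop to day 2 was 12.1-fold (log2 -3.60 ± 0.29, adjusted p = 1.08e-09).

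Il1rn then recovered in part. It read 636, 450.3 and 409 on day 4 and 395, 244 and 432 on day 6. Later readings were 638, 446 and 414 on day 8 and 318, 327 and 346 on day 10. Days 8, 4, 6 and 10 overlapped in that order of their means, and day 10 lay above every reading of day -2. Day 10 was 2.11-fold above day 2 (log2 1.08 ± 0.29, adjusted p = 0.0129 in limma), but without replicate 1 of day 2 the value was 0.89 (adjusted p = 0.0800) and without replicate 2 of day 2 it was 1.01 (adjusted p = 0.0552). Setting background at the 40th percentile gave 0.25 (adjusted p = 0.525), and with chip lot as a block 1.05 (adjusted p = 0.0702). Against day -2, day 10 differed by 0.52 ± 0.29 (adjusted p = 0.156).

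Il6st, encoding gp130, on chromosome 13 (chr13:112464070-112506860), rose over the course by both of its probe sets. Its first probe set read 1208, 1406 and 1321 on day -2, 1318, 1354 and 1865 on day -1 and 2733, 2101 and 2229 on day 0. In differentiating medium it read 2769, 2611 and 2136 on day 2, 2566, 2674 and 2710.3 on day 4 and 3144, 2868 and 3301 on day 6. The last days gave 2611, 3400.5 and 3537 on day 8 and 2639, 2713 and 3078 on day 10. The only gap without overlap between days neighbouring in the order of means was between day -1 and day 0. That step was 1.57-fold (log2 0.65 ± 0.15, n = 3, adjusted p = 0.00168 in limma), and day 10 was 2.14-fold above day -2 (log2 1.099 ± 0.15, adjusted p = 1.35e-06).

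The second Il6st probe set read 657, 693 and 546 on day -2, 903, 788 and 657 on day -1 and 988, 622 and 1085 on day 0. It then read 1184, 1412 and 1137 on day 2, 1419, 1018 and 1338 on day 4 and 1536, 1520.1 and 1481 on day 6. On day 8 it read 1689, 1353 and 1483 and on day 10 1705, 1517 and 944, with replicate 3 of day 10 below all readings of days 2 to 8. Here the gap without overlap came between day 0 and day 2, a step later than in the first probe set. The change from day -1 to day 0 was 0.17 (adjusted p = 0.645 in limma) and not called, so the probe sets disagree on that step; day 10 against day -2 gave 1.098 ± 0.22 (n = 3, adjusted p = 0.000200). Over the 8 daily means the 2 probe sets correlated at r = 0.95, a description over days that share arrays. Neither differed among days 2 to 10 by the F test (adjusted p = 0.325 for the first and 0.694 for the second).

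Osmr, the oncostatin M receptor chain, on chromosome 15 (chr15:6813568-6874968), rose late, after a dip on day 2. It read 656, 600.0 and 740.1 on day -2, 894, 687 and 765 on day -1 and 955, 1249 and 1067 on day 0. Day 2 gave 851, 615 and 717, readings that lay below all of day 0 and overlapped those of day -1 and day -2. The step up to day 0 was 0.48 ± 0.22 on the log2 scale (n = 3, adjusted p = 0.131 in limma) and the step down to day 2 was -0.59 ± 0.22 (adjusted p = 0.0675). The second was called when replicate 3 of day 4 (adjusted p = 0.0438) or replicate 3 of day 10 (adjusted p = 0.0467) was left out, neither of which belongs to the days compared.

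From day 4 on Osmr read 1498, 1787 and 986 on day 4 and 1950.0, 1479 and 2371 on day 6. It read 1619, 1473 and 1955 on day 8 and 1771, 1635 and 2719.8 on day 10. All 12 of these readings were above every reading of day 2, and the 4 days overlapped one another. Day 10 was 2.76-fold above day 2 (log2 1.46 ± 0.22, n = 3, adjusted p = 7.91e-05 in limma) and 3.00-fold above day -2 (log2 1.59 ± 0.22, adjusted p = 3.14e-06).

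**Figure D2:**
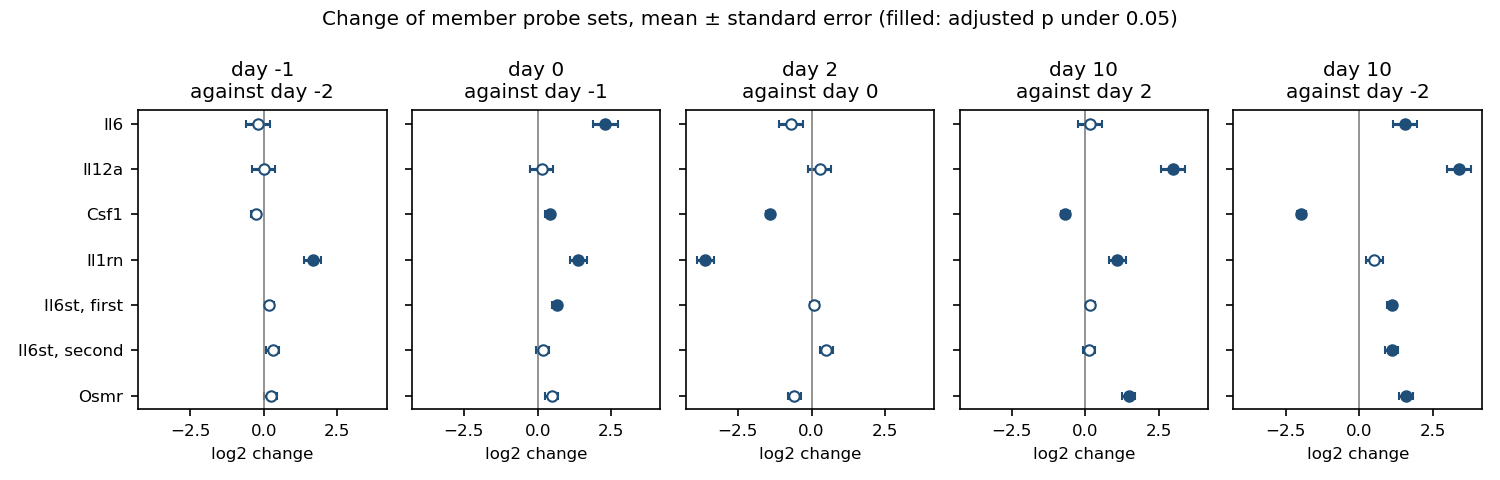
Change in mean log2 intensity (horizontal) of the 7 probe sets in 5 comparisons between days (panels), with standard errors as bars and filled points where the adjusted p was under 0.05. Calls up to day 0 are upward, the day 2 against day 0 calls are the 2 falls of Csf1 and Il1rn, and Csf1 is the only probe set called lower on day 10 than on day -2.

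Counted by step, 1 of the 7 probe sets was called from day -2 to day -1, where 6.07% of all probe sets tested were called higher and 3.22% lower. From day -1 to day 0, 4 of the 7 were called, all higher (Il6, Il1rn, the first Il6st probe set and Csf1), beside 11.9% of all called higher and 13.9% lower. From day 0 to day 2, 2 were called, both lower, beside 11.2% higher and 10.4% lower. Between day 2 and day 10, 3 were called higher (Il12a, Osmr and Il1rn) and 1 lower (Csf1), beside 6.52% and 7.26% of all. Across the whole course 5 were called higher and 1 lower, beside 22.2% and 22.3%. The median change of the 7 was 0.48 from day -1 to day 0 and -0.59 from day 0 to day 2 on the log2 scale, with 0.01 and 0.0001 for all probe sets tested, and 1.099 from day -2 to day 10 with 0.04 for all. Il6 was bright enough to be tested through days 0 and 4 alone, and Il12a through days 6 to 10 alone. The Il6 call into day 0 and the Il12a calls at day 10 thus fall on days that let these genes be tested. Comparisons that share a day share its 3 arrays, and the members were chosen with results of these data known.

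The arrays came from 5 chip lots and were scanned on 11 days, and within 1 chip lot, the largest, each of the 17 called changes kept its direction, with 1 or 2 arrays a day. The arrays of that lot also gave the calls, so this is no independent check. In that lot Il6 rose by 2.64 and Il1rn by 1.37 from day -1 to day 0, and the first Il6st probe set by 0.40 and Csf1 by 0.41. From day 0 to day 2 Il1rn changed by -3.74 and Csf1 by -1.45 there. From day 2 to day 10 Il12a changed by 2.92, Osmr by 1.18, Il1rn by 1.32 and Csf1 by -0.62 there. From day -2 to day 10 Il12a changed by 3.55, Osmr by 1.32, Il6 by 1.08, Csf1 by -1.87 and the Il6st probe sets by 1.17 and 1.21. For Il1rn from day -2 to day -1 the values were 1.30 in this lot and 1.84 in the other lot that held both days.

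Scan day could be followed for fewer comparisons, since day 0 and day -1 were on no scan day together, nor were day 10 and day 2. In the scan days that did hold both days of a comparison, with 1 array a day, all 9 called changes kept their direction. Il1rn changed by -4.16 and Csf1 by -1.32 from day 0 to day 2 there, and Il1rn by 1.30 from day -2 to day -1. These arrays also gave the calls, and those of both these comparisons are in the largest lot too. The value of 1.30 is from the same pair of arrays as in that lot, so none of this is an independent check. With scan day as a fixed block, a fit left with 6 residual degrees of freedom, none of the 4 calls from day -1 to day 0 passed in limma. The blocked changes there were 2.56 for Il1rn, 1.62 for Il6 and 0.56 for Csf1, and -0.02 for the first Il6st probe set (adjusted p from 0.127 to 0.993). Between day 2 and day 10 the block left 1 of the 4 calls, Osmr, with Il12a at 2.54, Csf1 at -0.83 and Il1rn at 0.80 (adjusted p from 0.0919 to 0.445), and it ended the call of Il1rn from day -2 to day -1 (1.46, adjusted p = 0.228), while both calls from day 0 to day 2 and all 6 from day -2 to day 10 passed. For day 0 against day -1 and day 10 against day 2, which share no scan day, no within-scan value could be had.

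Beside Il6, Il6st and Osmr, the gp130 family genes Lifr and Ctf1 rose over the course. Of 10 genes with a probe set in a list of gp130 ligands and receptor chains, 8 were tested, Il6, Il6st and Osmr included. Of these 8, 5 were called higher on day 10 than on day -2 and none lower, beside 22.2% and 22.3% of all probe sets tested. Their median change was 0.80 on the log2 scale, with 0.04 for all. Of the 5, 3 are members chosen with these results known. The additional ones were Lifr, the receptor chain for leukemia inhibitory factor (1.00 ± 0.19, n = 3, adjusted p = 0.000110 in limma), and Ctf1, encoding cardiotrophin 1 (0.60 ± 0.20, adjusted p = 0.0156). Il6ra, which encodes the chain that binds interleukin 6 itself, was called lower on day 2 than on day 0 (-1.51 ± 0.52, adjusted p = 0.0401), with 2 of 3 day 2 arrays at the floor. The F test over the 8 days did not call it, and it lost this call without replicate 2 or 3 of day 0 or without replicate 2 or 3 of day 2, when 0 genes of the list were called. Il11, encoding another ligand of this family, had 22 of its 24 arrays under the floor and was not tested.

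Among 21 genes of JAK, STAT and SOCS signalling, 5 were called higher and 3 lower on day 10 than on day -2, beside 22.2% and 22.3% of all probe sets tested, so the share called higher was near that of all and the share called lower was under it. Stat3 rose by 0.70 ± 0.14 from day -1 to day 0 (n = 3, adjusted p = 0.000677 in limma) and by 1.25 ± 0.14 over the whole course (adjusted p = 1.19e-07). Socs3, the feedback inhibitor of gp130 signalling, was called from day 2 to day 10 at 1.24 ± 0.16 (adjusted p = 7.91e-06), with daily means of 9.72 on day 2 and 11.01 on day 4. Socs2, an inhibitor known for restraining growth hormone signalling, went the way of a day 0 peak, with 1.37 ± 0.16 into day 0 (adjusted p = 5.05e-07) and -1.35 ± 0.16 after it (adjusted p = 6.82e-07). Pias1 went the other way, with -0.66 ± 0.22 into day 0 and 0.88 ± 0.22 after it (adjusted p = 0.0329 and 0.00535 in limma). Socs1 changed by -1.49 ± 0.50 from day 0 to day 2 (adjusted p = 0.0331 in limma). Sos1, a Ras exchange factor, was lower on day 10 than on day -2 by -1.06 ± 0.26 (adjusted p = 0.00204), but the F test over the 8 days did not call it.

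**Figure D3:**
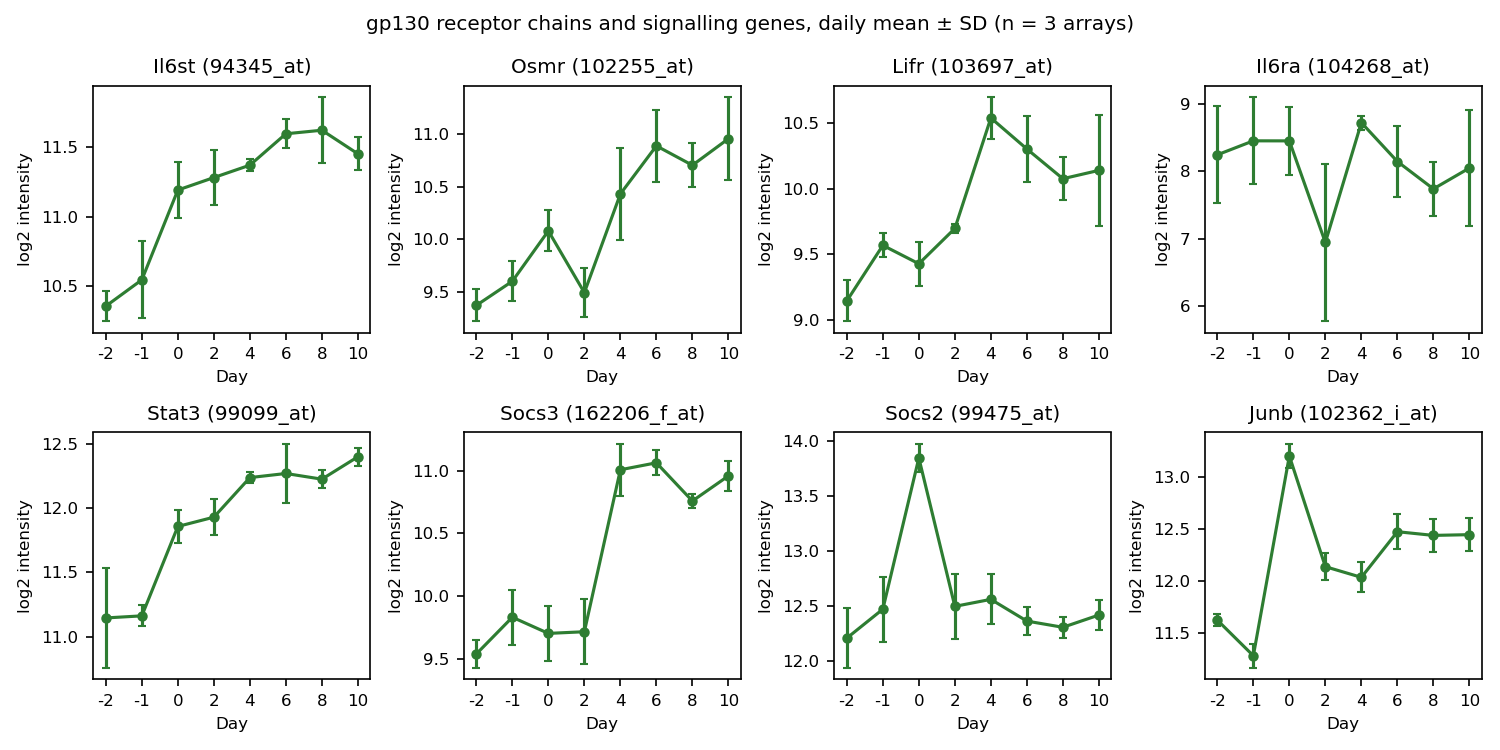
Mean log2 intensity ± SD of 3 arrays (vertical, each panel with its own range that does not start at 0) by day (horizontal, evenly spaced) for 4 receptor chains, Stat3, Socs3, Socs2 and Junb. Il6st and Stat3 step up at day 0, Osmr, Lifr and Socs3 are higher from day 4 on than on day 2, and Socs2 and Junb have their highest mean on day 0.

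Of 17 tested genes known to respond to STAT3 or C/EBP factors, 6 were called higher and 2 lower from day -1 to day 0, beside 11.9% and 13.9% of all probe sets tested. From day 0 to day 2, 1 was called higher and 6 lower, beside 11.2% and 10.4%. Junb, an AP-1 subunit, rose by 1.92 ± 0.11 into day 0 (n = 3, adjusted p = 1.47e-11 in limma) and changed by -1.06 ± 0.11 by day 2 (adjusted p = 1.68e-07). Bcl3, a partner of NF-kappaB, moved by 1.88 ± 0.55 and then by -1.99 ± 0.55 (adjusted p = 0.0133 and 0.0104). Bcl6, a transcriptional repressor, went against them, with -0.75 ± 0.12 and then 2.09 ± 0.12 (adjusted p = 4.24e-05 and 3.47e-12). By day 10 against day -2, 8 were called higher and 2 lower, beside 22.2% and 22.3% of all, among them Cebpd, a C/EBP factor, at 1.36 ± 0.15 (adjusted p = 7.47e-08), and Myc, a growth regulator, at -1.69 ± 0.19 (adjusted p = 1.52e-07).

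On the interleukin 1 side, 18 genes of interleukin 1 and NF-kappaB signalling were tested, Il1rn included. From day 0 to day 2, when Il1rn fell, 4 were called lower and 2 higher, beside 10.4% and 11.2% of all probe sets tested. The lower ones held Il1r1, the signalling receptor that the antagonist occupies (-1.10 ± 0.24, n = 3, adjusted p = 0.00128 in limma). Il1b, a ligand of that receptor, was among the higher ones by at least 1.60 ± 0.52 (adjusted p = 0.0296 in limma). All 9 of its arrays up to day 0 were at the floor. Its highest daily mean, 293 on day 2, was just over the 277.7 set for testing. It was thus tested through day 2 alone, the day called higher, whose log2 values had an SD of 1.31. Over the whole course 3 were called higher and 1 lower, under the 22.2% and 22.3% of all, with Relb, an NF-kappaB subunit, at 1.35 ± 0.21 (adjusted p = 8.19e-06) and Il1b at no less than 1.66 ± 0.52 (adjusted p = 0.0121). From day -2 to day -1 Tnfaip3, an inhibitor of NF-kappaB signalling, was at -1.37 ± 0.27 (adjusted p = 0.00173).

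Few other cytokine ligand genes were bright enough to be tested. Of 24 further interleukin and colony stimulating factor genes with a probe set, Csf1 and Il12a included, 8 were tested. From day -1 to day 0, 1 of the 8 was called higher and 1 lower, beside 11.9% and 13.9% of all probe sets tested. From day -2 to day 10, 1 was called higher and 2 lower, beside 22.2% and 22.3%. Beside those members only Kitl, the ligand of the receptor Kit, was called in the comparisons between days. Kitl changed by -1.78 ± 0.34 from day -1 to day 0 (n = 3, adjusted p = 0.000318 in limma) and by -1.89 ± 0.34 from day -2 to day 10 (adjusted p = 6.99e-05). Among 20 tested receptors of other cytokines, 7 were called higher and 2 lower on day 10 than on day -2, beside 22.2% and 22.3% of all probe sets tested, the largest rise being that of Csf3r, the receptor of granulocyte colony stimulating factor, at 1.44 ± 0.39 (adjusted p = 0.00422). Tnfrsf1b, a tumour necrosis factor receptor, moved with Il1rn in direction at each side of day 0, with 0.73 ± 0.16 into it and -1.66 ± 0.16 after it (adjusted p = 0.00161 and 4.51e-08), and Il13ra1, a chain of the interleukin 13 receptor, did so with 1.19 ± 0.25 and -1.15 ± 0.25 (adjusted p = 0.000835 and 0.00130). Il4ra, the chain for interleukin 4, rose by 1.08 ± 0.17 from day 2 to day 10 (adjusted p = 7.91e-05).

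Several of these genes are known from macrophages, so markers of leukocytes were read beside them. Of 20 such markers 19 had a probe set and 8 were bright enough to be tested. Cd14 was above the floor on all 24 arrays, with a median intensity of 1667, as were Laptm5 (571), Itgax (375), Cd53 (415), Fcgr1 (336) and Csf1r (241), and Fcgr3 was above it on all arrays but 1. Lyz2 was under the floor on all 24 arrays, Aif1 on 23, Ptprc on 22, Itgam on 21, Tyrobp on 20 and Adgre1 on 17. The summed intensity of the 19 ran from 3896 to 4749 on day 2 and from 4779 to 6457 on day 10, beside 4443 to 5810 on day -2. Csf1r, the receptor of the Csf1 product, changed by 0.05 from day -2 to day 10 (adjusted p = 0.948 in limma). Of the 8 tested markers 1 was called, Cd53, a tetraspanin of leukocytes. It changed by 2.05 ± 0.36 from day 2 to day 10 (n = 3, adjusted p = 0.000340 in limma), beside 6.52% of all probe sets tested called higher and 7.26% lower. From day -2 to day 10 it changed by 2.43 ± 0.36 (adjusted p = 5.75e-06 in limma), beside 22.2% and 22.3% of all. The part of such cells in the changes of Osmr and Il12a was not tested.

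The markers bore the label of differentiating muscle: 11 of 12 muscle genes were called higher from day -1 to day 0 and 1 lower, Myf5, a factor of undifferentiated myoblasts. Of all probe sets tested, 11.9% were called higher and 13.9% lower at that step. Arrays of a day correlated at a mean r of 0.958, with 0.898 between arrays of different days, and the ratio of 3' to 5' Gapdh probe sets, a sign of RNA integrity, had daily means from 0.789 to 0.884, with the highest on day -2.

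Genes with the most similar daily pattern were taken from 3677 candidates, by the Pearson correlation of 8 daily means of log2 intensity, as a description with no test. For Osmr they were Cd53 (r = 0.991), Uvrag (r = 0.985) and H6pd (r = 0.96). Il12a was most like Eef1a2 (r = 0.995), a translation elongation factor of muscle and nerve, then Mxd1 (r = 0.99) and Tnfrsf11b (r = 0.97). For Csf1 they were Agpat5, Srsf2 and Ewsr1 (r between 0.98 and 0.99), and for Il1rn Aldh2 (r = 0.97), Glrx (r = 0.96) and Ctps2 (r = 0.96). Il6 was closest to Zfp276 (r = 0.97), Lgals3bp (r = 0.94) and Aldh1a3 (r = 0.93). The first Il6st probe set was closest to Lrrn1, Myoz1 and Prkar1a, and the second to Lsp1, Psmd10 and Atp6v0a1, all at r = 0.99, with no gene in both sets. Among the members, Osmr correlated with Il12a at r = 0.87 and with the first Il6st probe set at r = 0.82, while Csf1 ran against the second Il6st probe set at r = -0.92.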

How the data were processed

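The authors deposited 1 intensity per probe set and array on a linear scale. The sources used here do not give how probes were summarised. The array type was MG_U74Av2, per the file headers. Trimmed array means differed by a factor of 1.00003, so no scaling was added. Values under the 20th percentile (77) were raised to it and log2 was taken. Probe sets with a daily mean above the 40th percentile (277.7) on at least 1 day were tested (8484). Symbols came from the platform annotation, with 10817 updated through RefSeq gene identifiers (GRCm38.p6). The 8 days were fitted together with limma 3.58.1 in R 4.3.3 (lmFit, contrasts.fit, eBayes with a variance trend, 16 residual degrees of freedom), with Benjamini-Hochberg adjustment; the code was tested on simulated data. The number of arrays limits the precision. Figures used matplotlib 3.10.9.

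The members and gene lists were chosen with earlier results of these data known. Named were all members, for each list up to 3 called genes with the largest change in a comparison, and for each member the 3 genes of most similar daily pattern. Lifr, Ctf1, Il1r1, Ebi3, Il12b, Il11, Csf1r, Myf5 and leukocyte markers other than Cd53 were added after their values were seen. A gene in a list stands for its brightest probe set. Alternatives covered the floor, dim filter, quantile normalization, variance prior, replicate number, chip lot, scan day, the arrays fitted and each array left out.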

Additional observations from a re-analysis of the deposited data

How the results depend on the processing

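Of the 17 called changes of member probe sets between days, all kept direction in the 408 values with 1 array left out, and 400 stayed called; the 8 lost were Csf1 from day -1 to day 0 without any 1 of 6 arrays and Il1rn from day 2 to day 10 without replicate 1 or 2 of day 2. All 17 stayed called with a floor at the 5th percentile, a pseudocount or a robust prior, and 14 with the floor at the 40th percentile. Filtering on the mean over all arrays left Il6 and Il12a untested and kept 13 of 13. With chip lot as a block 15 stayed called, with scan day as a random block 16, and with scan day as a fixed block 9. That last fit called 2529 probe sets over the 8 days, 328 among days 2 to 10, 137 from day -2 to day -1, 274 from day -1 to day 0, 697 from day 0 to day 2 and 298 from day 2 to day 10, beside 4675, 1238, 788, 2189, 1830 and 1169. Its member counts were 1 among days 2 to 10, 0 from day -2 to day -1, 0 from day -1 to day 0 and 1 from day 2 to day 10, and the first Il6st probe set reversed to -0.0151 from day -1 to day 0. With the arrays of the compared days alone, 451 were called from day -2 to day -1 and 779 from day 2 to day 10. Leaving out 1 array gave 759 to 1296 calls among days 2 to 10, the fewest without replicate 2 of day 2 and 820 without replicate 1, and 499 to 810 from day -2 to day -1, the fewest without replicate 1 of day -1. The cause was not tested, except that the blocked fit has 6 residual degrees of freedom. Deviations of same-numbered arrays correlated at a mean of 0.033, with pairs from -0.19 to 0.32. With so wide a range this does not settle whether replicate numbers pair some of the arrays. The replicate block ended 1 member call, Csf1 from day -1 to day 0 (adjusted p = 0.0501 in limma). Signal over background limits Il6 and Il12a, with 5 and 10 of 24 arrays under the floor.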
